A study of Homo sapiens with 6 samples.

Results

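Interferon-stimulated genes (ISGs) are genes whose transcription rises when a cell senses an interferon, the secreted signal that cells release on meeting a virus. The 39 ISGs described here were found by exact match of their gene symbols among the 60612 genes of the deposited tables, and all 39 were present. RNA sequencing had been done on 6 libraries labelled HepG2, an established human line from a liver tumour, 3 of them labelled with the genotype ABCF1 and 3 with the genotype NC-1. The series concerns overexpression of ABCF1 in stable HepG2 strains, and its design text names forms in which lysines were changed to arginines. The sample labels give no more than the name ABCF1, so the form carried, the vector and the number of clones are not settled by them, and they do not say what NC-1 is. No interferon or other stimulus is named for either group.

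Type I and type III interferons bind receptors that activate the kinases JAK1 and TYK2, which phosphorylate proteins of the STAT family. STAT2 and IRF9 are parts of the complex ISGF3, which binds the interferon-stimulated response element in the promoters of ISGs. Interferon gamma acts through another DNA site, the gamma-activated site. Many cells transcribe some ISGs at a low level with no interferon added.

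Promoter windows, at hand for 30 of the 39 genes, were searched for letters that match these elements. They are shown for ISG15, IFITM3 and BST2, the most abundant members with a sequence at hand, and for IFIT1 and ISG20, taken up again below. The window of IFI44L, which had no reads, is shown as well. Windows of 300 bases around the annotated start (250 before it and 50 after it) came from RefSeq on GRCh38.p14 and were matched by symbol for 30 members. Windows were not matched for OASL, IRF7, GBP2, MX2, OAS2, USP18, TRIM22, IFITM2 and IFIT2. The core of the response element was searched as GAAANNGAA on both strands and the gamma-activated site as TTCNNNGAA, which reads the same on both strands. A stretch can match both motifs, and matches may overlap. The core was present for 21 of the 30 members (70.0%), against 9.86% of the 27305 genes with such windows. With 1 more A at its 3′ end it was present for the same number of members and for 4.38% of genes, and the gamma-activated site for 9 members (30%) and 9.38% of genes. A match describes letters in the window and is not a measured binding site. In the sequences below, the 200 bases before each start are written 5′ to 3′ in the direction of the gene, and capitals mark matches to the core on either strand.
ISG15 (chr1:1013297-1013496, plus strand): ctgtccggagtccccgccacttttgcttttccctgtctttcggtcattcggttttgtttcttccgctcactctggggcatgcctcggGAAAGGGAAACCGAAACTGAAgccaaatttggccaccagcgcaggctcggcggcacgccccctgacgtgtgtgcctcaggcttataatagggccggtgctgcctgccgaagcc
IFITM3 (chr11:320861-321060, minus strand): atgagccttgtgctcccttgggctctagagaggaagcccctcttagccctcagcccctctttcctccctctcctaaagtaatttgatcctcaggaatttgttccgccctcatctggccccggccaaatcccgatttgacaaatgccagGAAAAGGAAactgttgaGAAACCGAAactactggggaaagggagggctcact
BST2 (chr19:17405631-17405830, minus strand): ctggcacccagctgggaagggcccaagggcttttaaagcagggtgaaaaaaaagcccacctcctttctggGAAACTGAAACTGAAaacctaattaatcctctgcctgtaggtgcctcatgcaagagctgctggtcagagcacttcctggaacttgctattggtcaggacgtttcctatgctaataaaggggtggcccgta
IFIT1 (chr10:89392423-89392622, plus strand): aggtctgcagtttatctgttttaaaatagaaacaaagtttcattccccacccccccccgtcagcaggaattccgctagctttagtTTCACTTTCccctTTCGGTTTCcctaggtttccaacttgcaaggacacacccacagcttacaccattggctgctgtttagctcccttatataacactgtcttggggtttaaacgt
ISG20 (chr15:88638816-88639015, plus strand): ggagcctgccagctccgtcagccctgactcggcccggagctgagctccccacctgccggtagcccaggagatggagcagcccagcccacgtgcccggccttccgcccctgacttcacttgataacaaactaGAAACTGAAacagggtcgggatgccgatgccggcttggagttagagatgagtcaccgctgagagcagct
IFI44L (chr1:78620248-78620447, plus strand): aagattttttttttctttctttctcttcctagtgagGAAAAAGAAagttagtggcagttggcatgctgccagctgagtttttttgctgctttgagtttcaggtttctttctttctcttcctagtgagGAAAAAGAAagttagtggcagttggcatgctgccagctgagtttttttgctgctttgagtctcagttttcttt
In ISG15 3 matches overlap in 1 run, and in BST2 2 matches overlap. IFIT1 holds 2 matches read from the opposite strand. ISG20 holds 1, on the strand of the gene. IFI44L, which was silent in all 6 libraries, holds 2 matches, so a match in this window did not always go with a measurable transcript.

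Several facts of the whole series bear on the values below. Libraries held 62323034 to 77394510 counts and detected 20356 to 21012 genes. ABCF1 itself was measured lower under its own label, at 106 ± 4.05 CPM (counts scaled to the TMM-adjusted library size; SD, n = 3) while NC-1 had 158 ± 3.62 CPM (SD, n = 3). Its log2 fold change was -0.57 (SE 0.08) with an edgeR adjusted p of 0.25, so overexpression is not seen in these counts and the groups are called here by their labels. HNF4A, a liver transcription factor, was at 92.0 to 121 CPM, whereas the other 10 hepatocyte markers, among them ALB and APOA1, had at most 33 counts in any library. The liver identity that the label gives is therefore not seen in the secreted liver proteins, and whether the cells are HepG2 was not settled. The 5 epithelial markers summed to 1319 to 1701 RPKM, nearly all of it from KRT8 and KRT18, while EPCAM was at 8.54 to 13.6 CPM, and CDH1 and KRT19 had at most 27 and 23 counts. Of 8 leukocyte markers, PTPRC, CD3E and MS4A1 were at 0 in every library, and CD4, CD14, CD79A and LYZ had at most 21 counts. The remaining one, CD68, a lysosomal protein not limited to leukocytes, was at 28.0 ± 3.00 CPM in ABCF1 and 19.8 ± 5.03 CPM in NC-1 (SD, n = 3), with a log2 fold change of 0.50 (edgeR adjusted p = 0.29). Summed over the 8, levels were 13.0 to 15.5 RPKM in ABCF1 and 9.13 to 14.96 RPKM in NC-1. Of 4 markers of plasmacytoid dendritic cells, a main source of interferon, LILRA4 and CLEC4C were at 0 in every library, and IL3RA and TCF4 had at most 24 and 8 counts. The part of any such cells in the results was not tested. ABCF1 replicate 3 and NC-1 replicate 2 stood apart from the other 4 libraries on the first principal component of log2 CPM, with scores of 47.2 and 42.0 against -29.3 to -6.96. The labels do not state separate cultures for the replicates, and p-values therefore reflect only how these 6 libraries vary, which could be technical variation.

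The members covered a wide range of levels, and most of their summed level came from 4 genes. In deposited RPKM (reads scaled to transcript length and to library depth), ISG15 had the highest mean over the 6 libraries at 691, followed by IFITM3 at 371, BST2 at 241 and IFITM2 at 177. Together they made up 78.3% to 84.4% of the summed RPKM of all members in each library. IFI6 at 63.1 RPKM and OAS1 at 38.8 RPKM came next, then OASL, IFI35, OAS3 and ISG20. In all, 15 members had a mean of 10 RPKM or more, 26 tested members had 1 or more, and 7 tested members, among them MX1, RSAD2 and OAS2, had less than 1. The plot of RPKM by library shows that the spread between members was far wider than the spread between libraries of 1 member.

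**Figure D1:**
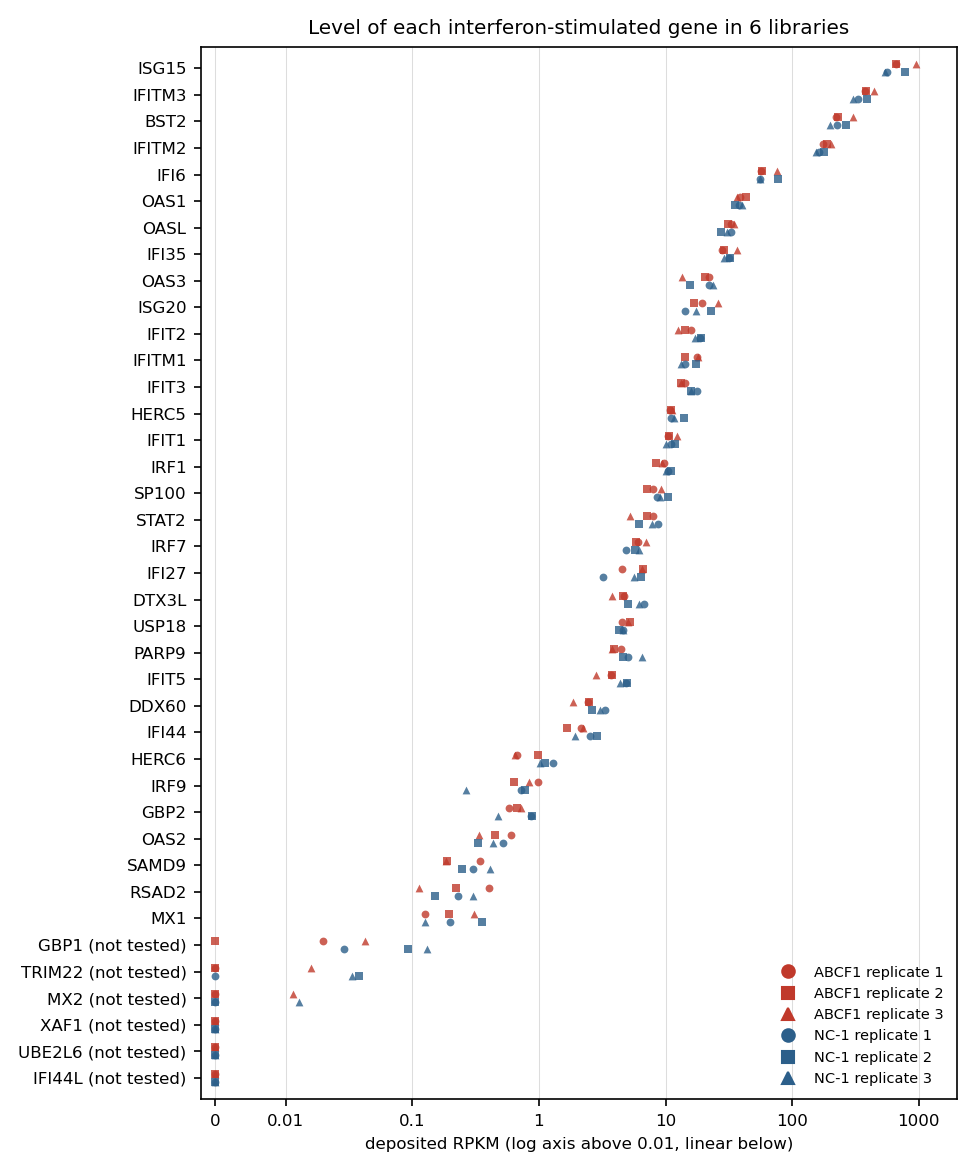
Deposited RPKM of each of the 39 interferon-stimulated genes (rows, ordered by mean) in the 3 libraries labelled ABCF1 (red) and the 3 labelled NC-1 (blue), on an axis that is logarithmic above 0.01 and linear below. ISG15, at a mean of 691, heads the order, and UBE2L6, XAF1 and IFI44L lie at 0 in every library.

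Some ISGs that are commonly strongly induced were near or at 0 in both groups. UBE2L6, IFI44L and XAF1 had 0 counts in every library, and a count of 0 allows up to 3 counts, or 0.0388 to 0.0481 CPM by library, as counting error alone. GBP1 had 0 to 21 counts, TRIM22 0 to 8 and MX2 0 to 5. These 6 genes did not pass edgeR's filter on low counts and were not tested, which leaves 33 tested members. Among the 33, MX1 had 26 to 89 counts and RSAD2 34 to 95, so their differences between groups could not be measured closely.

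The comparison asks whether these genes differ in level between the libraries labelled ABCF1 and those labelled NC-1. In edgeR's quasi-likelihood test, adjusted by Benjamini-Hochberg over all 16545 tested genes, none of the 33 members passed an adjusted p of 0.05, with adjusted p from 0.277 to 0.995. The background was 0 genes in each direction (0%). Before adjustment, p was under 0.05 for 3 members higher (OASL, IFITM2 and IFITM3) against 6.27% of genes, and 2 lower (DTX3L and IFIT5) against 8.54% of genes. The DESeq2 Wald test called 0 members in either direction among the 24 to which it gave an adjusted p, and it called 2.19% of genes higher and 3.45% lower. A gene's groups were called not overlapping where all 3 libraries of one label lay above all 3 of the other in CPM. This held for 4 members higher in ABCF1 (OAS1, OASL, IRF1 and USP18), against 10.7% of genes, and for 5 lower (IFIT2, IFIT3, IFIT5, DDX60 and DTX3L), against 12.4% of genes. Log2 fold changes (ABCF1 over NC-1) ran from -0.44 for HERC6 to 0.39 for IRF9, with 19 positive and 14 negative. Their median was 0.12, against 0.00 over all tested genes, and it fell to 0.05 without ABCF1 replicate 3, to 0.05 without NC-1 replicate 1 and to 0.07 without NC-1 replicate 3. In bulk RNA, fewer cells with a transcript and less of it per cell cannot be told apart.

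Because 2 libraries stood apart, another edgeR fit had a covariate, called the library set below, that parted those 2 libraries from the other 4. That covariate was read from the same counts, so its p-values are not those of a planned design. It called 6 members higher in ABCF1 (ISG15, ISG20, IFITM3, IFITM2, OASL and BST2), against 12.9% of genes, and 5 lower (IFIT2, IFIT3, IFIT5, DDX60 and DTX3L), against 12.5% of genes. The members that this fit called higher had a median GC content of 56.2% in their longest transcript, and those called lower 42.8%. Libraries also differed by transcript length and GC content over all genes. Spearman's rho across genes between GC content and a library's deviation from the gene's mean was 0.24, 0.33 and 0.28 in the ABCF1 libraries and -0.31, -0.28 and -0.20 in NC-1. The GC trend thus split by label, and the label and whatever set this trend cannot be told apart. A further edgeR fit removed each library's smooth trend with both by a per-gene offset and kept the library set, so it would also remove a difference between the groups that followed GC content or length. With the offset, 2 members were called higher, ISG20 and IFIT1, against 3.81% of genes, and 0 lower, against 1.83%. The offset without the library set called 0 members and 0 genes (0%) in each direction. With the 2 libraries that stood apart left out instead, edgeR called 3 members higher (ISG15, IFITM2 and IFITM3) against 5.68% of genes, and 1 lower (DTX3L) against 5.1%. The plot of fold changes by role sets the first 3 of these fits side by side.

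**Figure D2:**
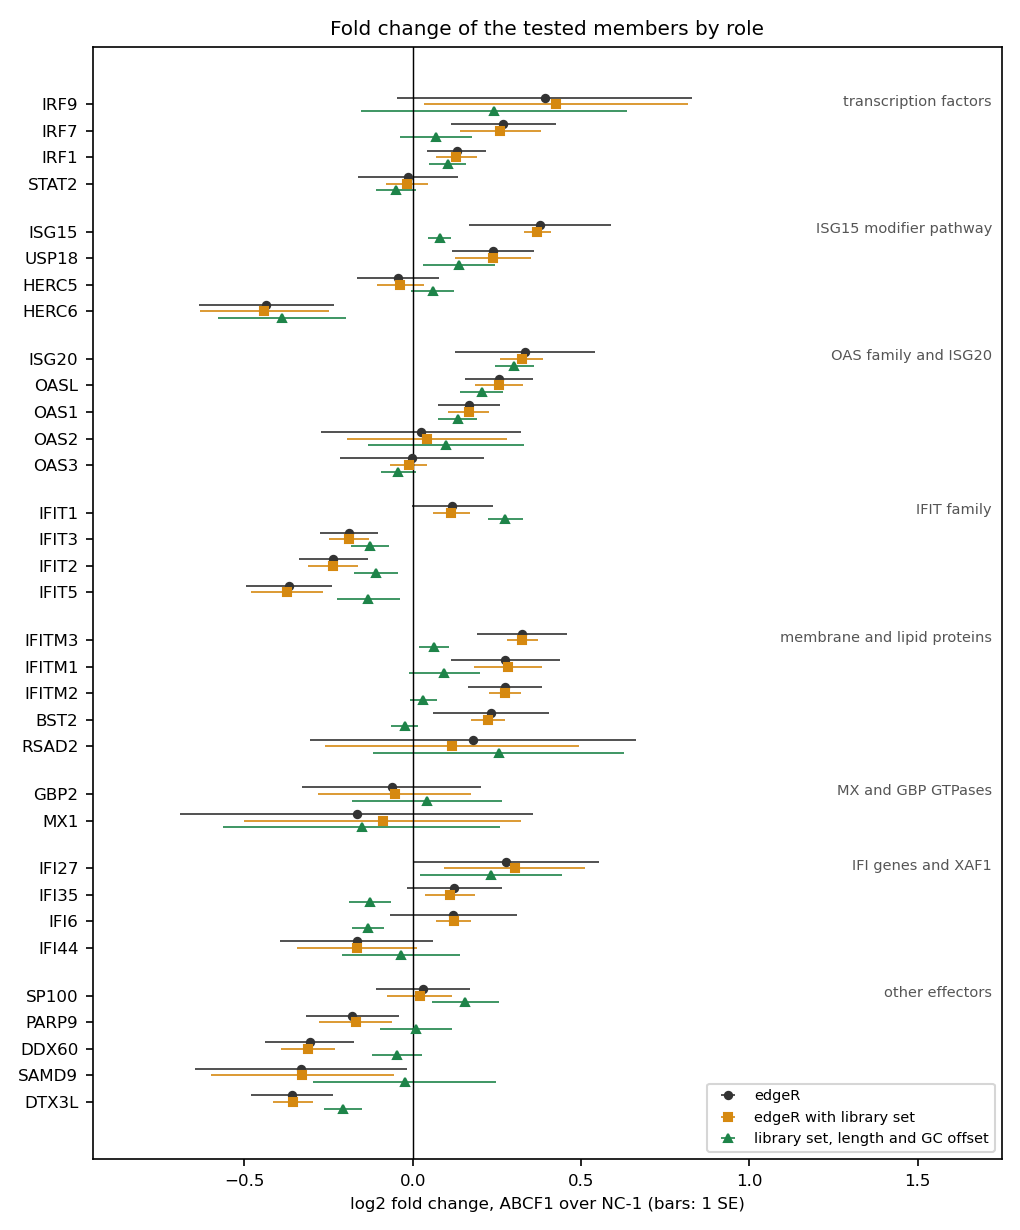
Log2 fold change (ABCF1 over NC-1) of the 33 tested members by role, from edgeR without covariates (black circles), with the library set (orange squares) and with the library set and the length and GC offset (green triangles); bars are 1 SE. The standard errors of abundant members are smaller with the library set, and ISG15, IFITM3, IFITM2 and BST2 lie near 0 with the offset, at 0.08, 0.06, 0.03 and -0.02.

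None of the 4 transcription factors of the pathway passed in any of these fits. STAT2 and IRF9 belong to ISGF3, IRF1 is a factor induced by interferon gamma, and IRF7 amplifies the transcription of type I interferon genes. IRF1 was at 32.1, 32.2 and 35.1 CPM in ABCF1 replicates 1, 2 and 3 and at 30.5, 30.5 and 29.8 CPM in NC-1. All 3 ABCF1 libraries were higher, yet the log2 fold change was 0.13 (SE 0.09) and its edgeR adjusted p 0.51. On the deposited RPKM the sign turned, with a log2 difference of -0.19 on the log2(RPKM + 1) scale, so no direction is given for IRF1. STAT2 had a log2 fold change of -0.02 (SE 0.15, 95% interval -0.36 to 0.33), and IRF7, at 9.37 to 15.6 CPM, had a log2 fold change of 0.27 (SE 0.16). IRF9 had only 33 to 114 counts, and its value of 0.39 (SE 0.44) was imprecise. IRF9 shares its position with the annotated gene AL136295.5, which took up to 2057 counts on the same strand, so reads of the 2 may have been divided between them.

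In the pathway of the ISG15 modifier, the transcript of the modifier itself was abundant while that of its conjugating enzyme was not seen. ISG15 encodes a ubiquitin-like protein joined to other proteins, UBE2L6 is its conjugating enzyme, HERC5 is the main human ligase, HERC6 is the ligase known from mouse, and USP18 removes ISG15 and also damps interferon receptor signalling. ISG15 was at 466, 477 and 718 CPM in the ABCF1 libraries and at 371, 536 and 371 CPM in NC-1. NC-1 replicate 2 lay above ABCF1 replicates 1 and 2, so the groups overlapped, and the highest library of each label was the one that stood apart. Its log2 fold change was 0.38 (SE 0.21, edgeR adjusted p = 0.43). With the library set it was 0.37 (SE 0.04, edgeR adjusted p = 9.8e-04), and with the offset as well it was 0.08 (SE 0.03, edgeR adjusted p = 0.21). Left without ABCF1 replicate 3, the ISG15 difference in the fit with no covariate was 0.15. ISG15's longest transcript is 63.4% GC, and the part of GC content in the difference was not tested beyond these fits.

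USP18 was at 9.39, 11.1 and 11.1 CPM in ABCF1 and at 8.88, 8.61 and 9.23 CPM in NC-1. The USP18 groups did not overlap, but the log2 fold change of 0.24 (SE 0.12) had an edgeR adjusted p of 0.39 and was 0.14 (SE 0.11) with the library set and offset. HERC5 had 39.9 to 53.2 CPM over all 6 libraries and a log2 fold change of -0.04 (95% interval -0.33 to 0.24). HERC6 had the lowest fold change of the members, -0.44 (SE 0.20, edgeR adjusted p = 0.36), at 180 to 344 counts, and ABCF1 replicate 2 lay within the NC-1 range. UBE2L6, given above, had no counts in any library although ISG15 was the member of highest RPKM.

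OAS1, OAS2 and OAS3 make oligoadenylates on binding double-stranded RNA, which switch on the nuclease RNase L, while OASL lacks that activity and aids the RNA sensor RIG-I, and ISG20 is an RNA exonuclease. Of these 5, 4 had a positive log2 fold change. OASL and ISG20 passed with the library set, in a fit that called 12.9% of all tested genes higher. OASL was at 107, 100 and 119 CPM in ABCF1 and at 96.9, 85.1 and 90.7 CPM in NC-1, with no overlap. Its log2 fold change was 0.26 (SE 0.10, edgeR adjusted p = 0.31), 0.25 (SE 0.07, adjusted p = 0.025) with the library set and 0.21 (SE 0.06, adjusted p = 0.097) with the offset added. Of the members called higher with the library set, OASL and ISG20 kept the most of their difference under the offset.

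ISG20 was at 30.5, 32.2 and 47.6 CPM in the ABCF1 libraries and at 24.8, 36.2 and 26.7 CPM in NC-1. The groups overlapped because NC-1 replicate 2 was high, and within the 4 other libraries both ABCF1 values lay above both NC-1 values. ISG20 had a log2 fold change of 0.33 (SE 0.21) with an edgeR adjusted p of 0.48, 0.32 (SE 0.06) with 0.0061 under the library set, and 0.30 (SE 0.06) with 0.019 under the library set and offset. Without ABCF1 replicate 3 and with no covariate it was 0.11, and with both libraries that stood apart left out it was 0.29 (SE 0.08, edgeR adjusted p = 0.065). The ISG20 promoter printed above holds 1 match to the core.

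OAS1 was at 66.4, 74.3 and 66.3 CPM in ABCF1 and at 59.6, 60.4 and 64.5 CPM in NC-1, all ABCF1 libraries being higher. The OAS1 log2 fold change was 0.17 (SE 0.09, edgeR adjusted p = 0.43) and did not pass with the library set either (adjusted p = 0.069). Without ABCF1 replicate 2 it was 0.10. OAS3 was at 161, 152 and 99.7 CPM in ABCF1 and at 146, 106 and 162 CPM in NC-1. The libraries that stood apart were the lowest for OAS3 in both groups, the reverse of ISG15, and the group difference was 0.00 (SE 0.21, 95% interval -0.50 to 0.49). Leaving out ABCF1 replicate 3 gave 0.19 for OAS3. OAS2, at 84 to 156 counts, had a value of 0.02 (SE 0.30). OAS1, OAS3 and OAS2 lie side by side on chromosome 12 between 112906783 and 113011723 (GRCh38) and are related in sequence, so reads shared among them may have been divided by the authors' counting.

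The IFIT proteins bind foreign RNA and hold back its translation, and 3 of the 4 measured members had negative fold changes while IFIT1 did not. IFIT2 was at 56.1, 52.6 and 47.3 CPM in ABCF1 and at 61.0, 65.4 and 57.5 CPM in NC-1. IFIT3, a partner of IFIT1 and IFIT2, was at 38.2, 35.8 and 37.3 CPM in ABCF1 against 44.2, 41.7 and 41.1 CPM in NC-1. IFIT5 was at 16.5, 17.4 and 13.4 CPM against 20.1, 21.9 and 18.9 CPM. For these 3 genes every ABCF1 library lay below every NC-1 library. Their log2 fold changes were -0.24 (SE 0.10), -0.19 (SE 0.09) and -0.37 (SE 0.13), with edgeR adjusted p of 0.34, 0.35 and 0.28. With the library set, which called 12.5% of all tested genes lower, all 3 passed (edgeR adjusted p = 0.040, 0.043 and 0.029). With the offset added they were -0.11, -0.13 and -0.13 and did not pass (edgeR adjusted p = 0.39, 0.24 and 0.49). Their longest transcripts are 42.8%, 44.3% and 37.4% GC.

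IFIT1 was at 49.8, 52.4 and 62.9 CPM in ABCF1 and at 48.9, 55.9 and 47.3 CPM in NC-1, and the groups overlapped. IFIT1 had a log2 fold change of 0.12 (SE 0.12, edgeR adjusted p = 0.68), 0.11 (SE 0.05, adjusted p = 0.16) with the library set and 0.28 (SE 0.05, adjusted p = 0.018) with the offset added. The offset subtracts the trend of genes of like GC content and length (42.2% GC for IFIT1), and IFIT1 was called only in the fit with both the library set and the offset. With the offset alone it was also 0.28, but with an edgeR adjusted p of 0.60. Without ABCF1 replicate 3 and with no covariate the IFIT1 value was 0.02. The 4 genes lie on chromosome 10 between 89283694 and 89420997 (GRCh38), are near copies of each other in part, and IFIT1, IFIT2 and IFIT3 overlap LIPA on the opposite strand, which took up to 4988 counts.

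Among proteins that act at membranes and on lipids or nucleotides, all 5 had positive fold changes, that of RSAD2 being imprecise. With the library set 3 passed, in a fit that called 12.9% of all tested genes higher. IFITM1, IFITM2 and IFITM3 hinder the fusion of viruses with cell membranes, BST2 (tetherin) holds budding virus at the cell surface, and RSAD2 (viperin) makes a nucleotide that stops viral RNA chains. IFITM3 was at 253, 266 and 318 CPM in ABCF1 and at 210, 259 and 200 CPM in NC-1. IFITM2 was at 167, 181 and 202 CPM against 144, 168 and 144 CPM. In both genes NC-1 replicate 2 reached just above the lowest ABCF1 library. The log2 fold changes were 0.32 (SE 0.13) for IFITM3 and 0.27 (SE 0.11) for IFITM2. Their edgeR adjusted p was 0.32 and 0.31, and 0.0016 and 0.0034 with the library set. With the offset they were 0.06 (SE 0.04) and 0.03 (SE 0.04), with edgeR adjusted p of 0.47 and 0.73.

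BST2 was at 248, 260 and 359 CPM in ABCF1 and at 232, 290 and 216 CPM in NC-1. As for ISG15, the libraries that stood apart were the highest of each label. BST2 had a log2 fold change of 0.23 (SE 0.17, edgeR adjusted p = 0.56), 0.22 (SE 0.05, adjusted p = 0.00996) with the library set and -0.02 (SE 0.04, adjusted p = 0.79) with the offset. That last value had a 95% interval of -0.11 to 0.06, so no direction is given for BST2 with the offset. Without ABCF1 replicate 3 the BST2 value with no covariate was 0.05. IFITM1 was lower in level, at 9.59 to 14.6 CPM, and its log2 fold change was 0.27 (SE 0.16). RSAD2, with 34 to 95 counts, had 0.18 (SE 0.48). In the deposited coordinates IFITM1 lies within the span given to IFITM2 on the same strand of chromosome 11, and the IFITM genes are close copies, so the division of reads among them is uncertain.

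**Figure D3:**
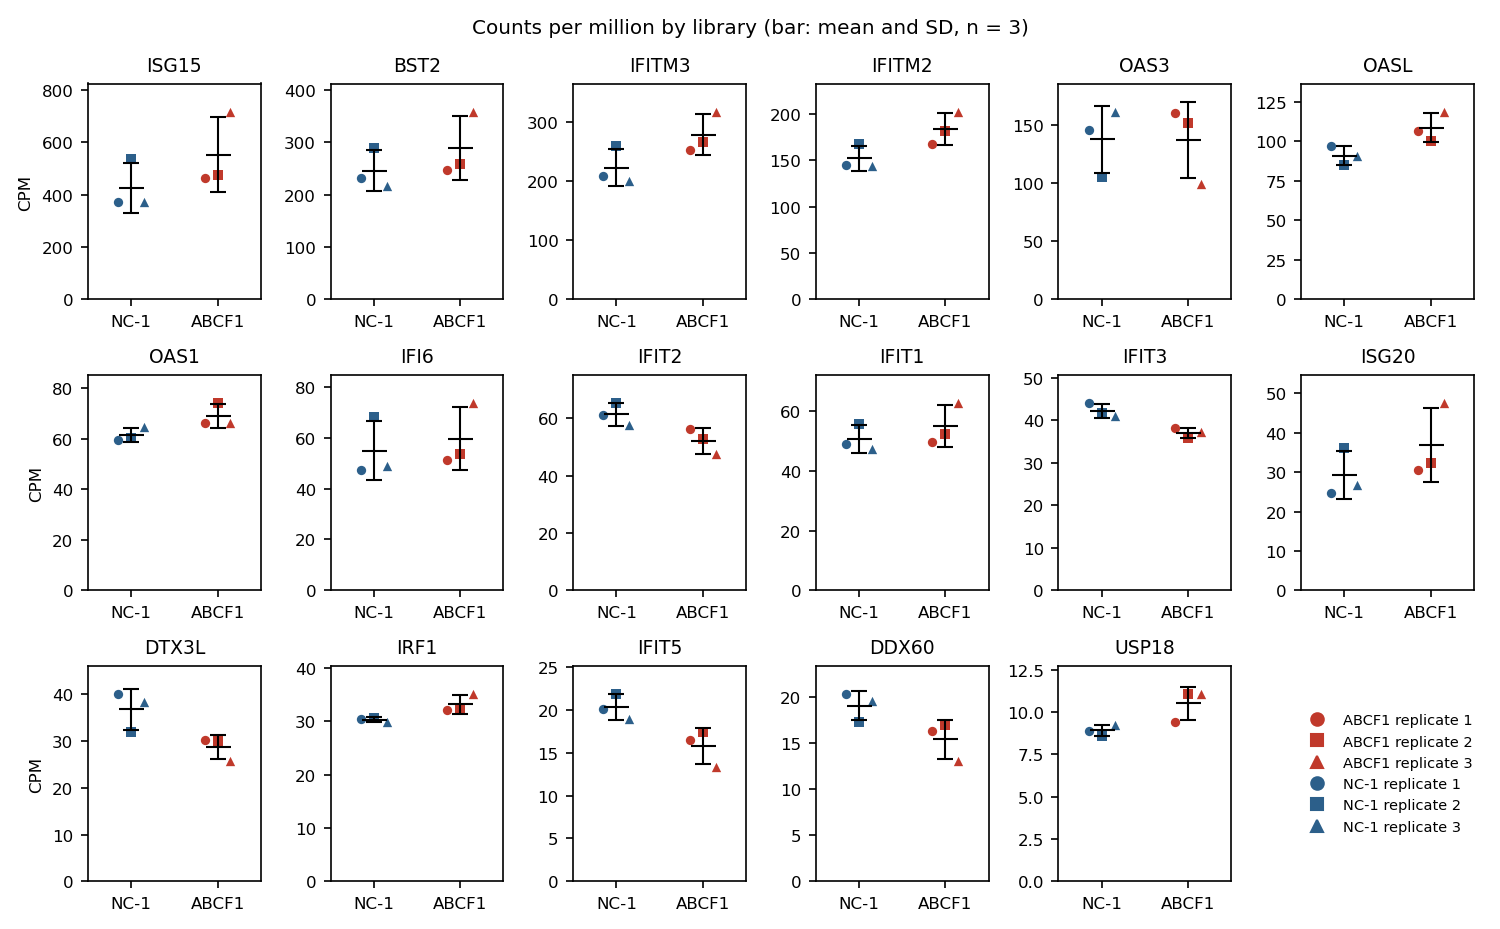
CPM of the 17 members given library by library, in NC-1 (blue) and ABCF1 (red), with symbols for the replicate, and bars for the mean and SD of 3 libraries; each axis starts at 0. IFIT2, IFIT3, IFIT5, DDX60 and DTX3L are lower in all ABCF1 libraries, OAS1, OASL, IRF1 and USP18 are higher in all of them, and the other members overlap.

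The antiviral GTPases were barely transcribed. MX1, which blocks influenza and other viruses in the cytoplasm, had a mean of 0.219 RPKM, and its log2 fold change of -0.17 had a 95% interval of -1.38 to 1.05. GBP2, a guanylate-binding protein that acts on membranes around microbes, was at 144 to 263 counts with a log2 fold change of -0.06 (SE 0.27). MX2 and GBP1 were not tested.

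Of the IFI genes, IFI6 and IFI35 were well above the rest. IFI6 encodes a small membrane protein that restrains cell death and flavivirus replication, and it was at 51.3, 53.6 and 73.7 CPM in ABCF1 and at 47.4, 68.1 and 48.9 CPM in NC-1. The IFI6 groups overlapped, with a log2 fold change of 0.12 (SE 0.19, edgeR adjusted p = 0.80) that turned to -0.13 (SE 0.05, adjusted p = 0.14) with the library set and offset. IFI35, which binds the protein NMI, was at 36.9 to 51.9 CPM with a log2 fold change of 0.12 (SE 0.14) that likewise turned, to -0.13 (SE 0.06). IFI27, a mitochondrial protein, was at 173 to 369 counts with 0.28 (SE 0.28), and IFI44, at 198 to 317 counts, had -0.17 (SE 0.23).

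Of the 5 tested members with other effector roles, 4 had negative log2 fold changes, and the median was -0.31. DTX3L and PARP9 form a complex that modifies histones and other proteins after DNA damage and in the interferon response. DTX3L was at 30.2, 30.01 and 25.6 CPM in ABCF1 and at 40.04, 31.8 and 38.2 CPM in NC-1, with no overlap. DTX3L had a log2 fold change of -0.36 (SE 0.12, edgeR adjusted p = 0.28), -0.36 (SE 0.06, adjusted p = 0.0031) with the library set and -0.21 (SE 0.06, adjusted p = 0.066) with the offset added. With the 2 libraries that stood apart left out it was -0.38 (SE 0.07, edgeR adjusted p = 0.021). PARP9 had a log2 fold change of -0.18 (SE 0.14), and its range of 18.1 to 25.7 CPM in NC-1 held all 3 ABCF1 values. PARP9 and DTX3L overlap at their starts on opposite strands, and reads there cannot be told apart without strand.

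DDX60, a helicase that takes part in RNA sensing, was at 16.3, 16.9 and 13.0 CPM in ABCF1 and at 20.3, 17.2 and 19.5 CPM in NC-1. The DDX60 groups did not overlap, by a narrow gap between ABCF1 replicate 2 and NC-1 replicate 2. Its log2 fold change of -0.31 (SE 0.13, edgeR adjusted p = 0.34) passed with the library set (-0.31, SE 0.08, adjusted p = 0.019) and was -0.05 (SE 0.07, adjusted p = 0.78) with the offset. The DDX60 value with no covariate was -0.19 without ABCF1 replicate 3. SAMD9, an antiviral protein that acts on translation, had 97 to 203 counts and a value of -0.33 (SE 0.31). SP100, a part of nuclear PML bodies, had a value of 0.03 (SE 0.14). TRIM22, a ligase, had at most 8 counts.

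Across the members, the fold change followed the GC content of the transcript. Spearman's rho between log2 fold change and the GC content of the longest transcript was 0.71 over the 33 tested members and 0.49 over the 16357 tested genes with a value. Restricted to a mean of 2 CPM or more, it was 0.75 over 29 members and 0.67 over 12098 genes. These points come from the same 6 libraries and are not independent. With transcript length rho was -0.60 over the members and -0.28 over the genes. After the library set and offset the rho with GC content was 0.09 over the members and 0.01 over the genes, which the offset was built to remove. The size of the fold change was smaller with the library set and offset than with the library set alone for 23 of the 33 members. The members' median was 0.12 with no covariate and 0.04 with the library set and offset, against 0.00 for all genes in both of these fits. The plot of fold change against GC content shows the members lying within the band of the other genes.

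**Figure D4:**
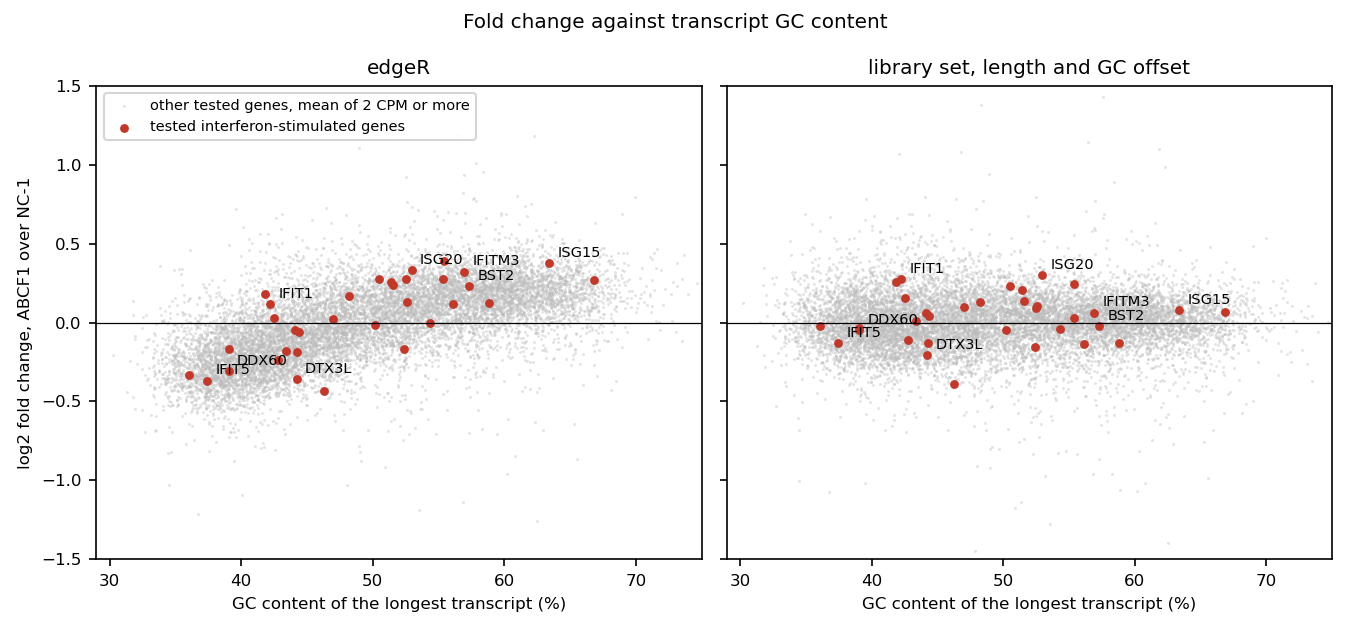
Log2 fold change (ABCF1 over NC-1) against the GC content of the longest transcript for the 33 tested members (red) and other tested genes with a mean of 2 CPM or more (grey), without covariates at the left and with the library set and the length and GC offset at the right; genes beyond 1.5 on the log2 axis are not drawn. At the left members follow the upward band (rho 0.71), and at the right no trend with GC is left (rho 0.09), with ISG20 and IFIT1 near the upper edge.

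The libraries of a group also differed from each other in these genes. Summed RPKM of the 39 members was 1761, 1785 and 2249 in ABCF1 replicates 1, 2 and 3 and 1617, 1964 and 1533 in NC-1. Both libraries that stood apart had the highest sum of their label, and in the other 4 both ABCF1 libraries lay above both NC-1 libraries. The median deviation of the members from their own mean log2 CPM was 0.18 in ABCF1 replicate 3 and 0.06 in NC-1 replicate 2, and -0.07 to -0.01 in the other 4 libraries. Of the 33 tested members, 24 had the same sign of difference in the 4 libraries as between the 2 that stood apart. The share over all tested genes is not given here, so nothing particular to the members is read from that count. The plot of deviations shows the differences between libraries by gene.

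**Figure D5:**
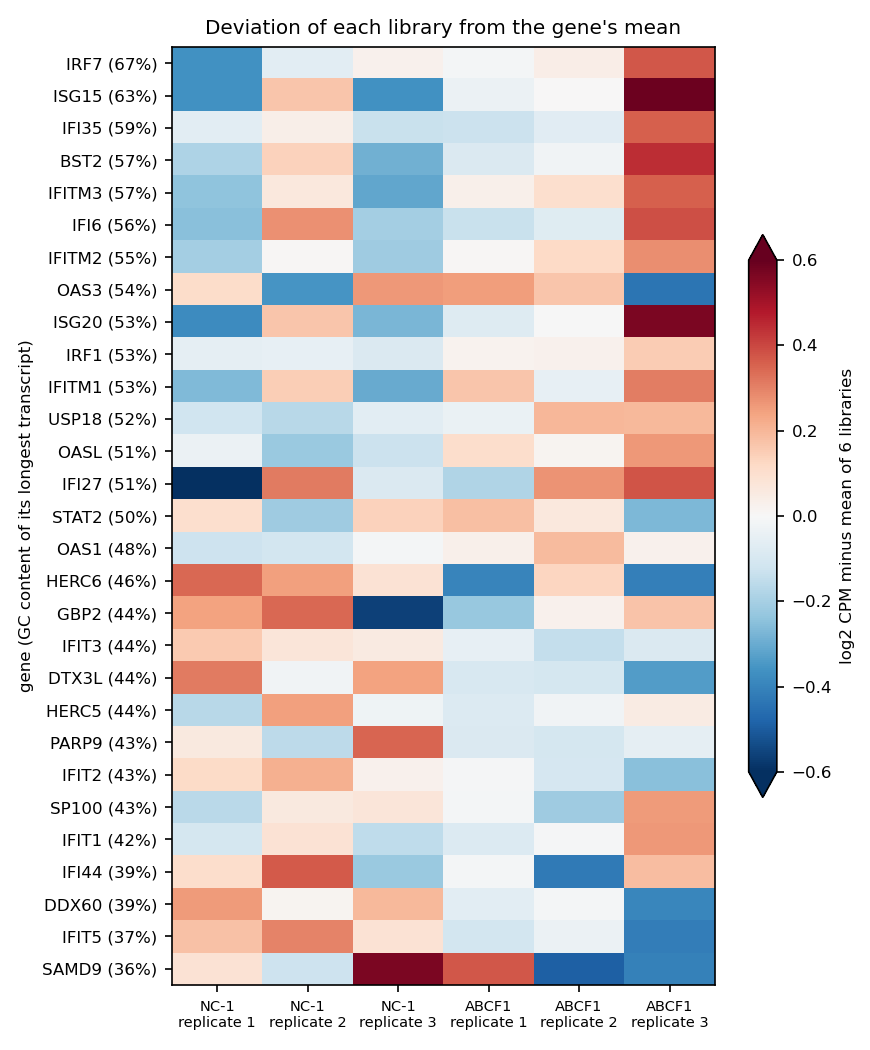
Deviation of each library from the gene's mean log2 CPM for the 29 members with a mean of 2 CPM or more, ordered by the GC content of the longest transcript (in brackets), red above and blue below the mean; the colour scale ends at 0.6 in either direction. ABCF1 replicate 3 is red for most GC-rich members and blue for DDX60, IFIT5 and SAMD9 at the bottom. Other members of low GC content are mixed in that library. IFI44 (0.18), IFIT1 (0.26), SP100 (0.26) and GBP2 (0.17) are red, and IFIT2 (-0.25), DTX3L (-0.33) and HERC6 (-0.41) are blue. OAS3 runs against its GC-rich neighbours.

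Upstream of these genes, transcripts of interferons were scarce and those of the receptors were present. Of 9 interferon genes 5 had 0 counts in every library, and the only one tested, IFNL1, had at most 40 counts and a log2 fold change of 0.58 (SE 0.56, edgeR adjusted p = 0.66). All 11 genes of receptors and JAK-STAT signalling were tested, and edgeR called 0 of them. The 2 of highest mean CPM, STAT3 and JAK1, had log2 fold changes of -0.01 (SE 0.15) and -0.12 (SE 0.17). The library set fit called 4 of the 11 lower, against 12.5% of all tested genes, among them IFNAR1, IFNAR2 and JAK2. It called 1 higher, against 12.9% of genes, namely IL10RB, a chain of the interferon lambda receptor. IFNAR1 and IFNAR2, the chains of the type I receptor, were at 43.7 ± 2.13 and 40.4 ± 1.01 CPM in ABCF1 against 54.6 ± 1.27 and 47.3 ± 1.17 CPM in NC-1 (SD, n = 3). Both were lower in all 3 ABCF1 libraries, yet with the offset added their log2 fold changes were -0.13 (SE 0.05) and -0.18 (SE 0.05) and did not pass, with edgeR adjusted p of 0.15 and 0.077. IL10RB passed in both fits, at 50.7 ± 0.391 against 44.2 ± 1.53 CPM (SD, n = 3), with a log2 fold change of 0.34 (SE 0.05, edgeR adjusted p = 0.0075) under the offset. It was the only 1 of the 11 called with the offset, which called 3.81% of all tested genes higher and 1.83% lower.

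Of 15 genes that restrain the pathway, USP18 among them, 14 were tested and edgeR called 0. SOCS3, an inhibitor of JAK kinases, and IRF2BP2, a corepressor, had the highest mean CPM, with log2 fold changes of 0.28 (SE 0.13) and -0.03 (SE 0.08). PTPN11, a phosphatase, was at 59.4 ± 11.7 against 86.7 ± 11.4 CPM (SD, n = 3), with a log2 fold change of -0.55 (SE 0.17, edgeR adjusted p = 0.26). It was the only one of the 14 called lower with the library set, against 12.5% of all tested genes. With the offset it was again the only one (-0.36, SE 0.05, edgeR adjusted p = 0.0065), against 1.83% of genes. SOCS3 was the only one called higher with the library set, against 12.9% of genes. With the offset 0 of the 14 were called higher, against 3.81%. Of the other ISGs listed, 62 were in the table and 53 were tested. edgeR called 0, and the library set fit called 8 higher and 7 lower, against 12.9% and 12.5% of all tested genes. With the offset 2 were higher, against 3.81% of genes, and 0 lower, against 1.83%. The 2 were B2M, the light chain of MHC class I, and PSME2, a proteasome activator subunit. B2M was at 825 ± 85.6 against 771 ± 87.7 CPM (SD, n = 3), and its log2 fold change of 0.10 (SE 0.12) became 0.23 (SE 0.03, edgeR adjusted p = 0.0041) with the library set and offset. ADAR, an RNA editing enzyme and second to B2M in mean CPM on that list, had -0.10 (SE 0.21). The median log2 fold change of those 53 genes was -0.10, on the other side of 0 from that of the 33 members.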

How the data were processed

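RNA of 6 libraries was sequenced, and the authors deposited a table of whole-number gene counts, without normalization, and a table of RPKM values scaled by them to transcript length and library depth, with GRCh38 coordinates for 60612 genes. CASAVA 1.8, Trimmomatic and FastQC are named in the submitters' processing notes, with HISAT2, StringTie, edgeR and the GRCh38 build; what each did, the annotation and any strand setting were not given in the sources used here. Depth was 62323034 to 77394510 counts per library.

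From the deposited counts, 3 ABCF1 libraries were compared with 3 NC-1 by the two-sided quasi-likelihood test of edgeR 4.0.16 (R 4.3.3), with TMM scaling, the filterByExpr filter and Benjamini-Hochberg adjustment over 16545 genes at a threshold of 0.05. A standard error is the size of the log2 fold change over the square root of F, and intervals are at 95%. Alternatives were DESeq2 1.42.0, limma 3.58.1 on log2(RPKM + 1) and log2(RPKM + 0.1), which understates changes of low genes, other filters and scalings, a library set covariate, a length and GC offset (smooth trends from mgcv 1.9.3, longest transcript in GENCODE 29, for 98.9% of tested genes), a block, and libraries left out.

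The 39 members, the lists of related genes and the alternatives were chosen with earlier results of these data known. All members are named. Values in every library are given for members called in the edgeR, DESeq2 or library set fit, those with a mean of 2 CPM or more and groups that do not overlap, and the 10 of highest mean CPM; of other lists, up to 4 called genes or the 2 of highest mean CPM, plus called genes picked after their values were seen. No 2 libraries of a group agreed within sampling noise (smallest chi-square per degree of freedom 11.4). The values of 1 gene of the lists are not reported here.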

Additional observations from a re-analysis of the deposited data

How the results depend on the processing

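Of 21 alternative settings, 1 of them a threshold of 0.01 in the same fit, 18 called 0 members higher and 19 called 0 lower. In 17 of the 21 settings 0 genes of any kind were called in either direction, so those settings say nothing particular to the members. The library set called 6 members higher and 5 lower (2129 and 2064 genes), the library set with the length and GC offset 2 higher and 0 lower (630 and 302 genes), and leaving out the 2 libraries that stand apart 3 higher and 1 lower (950 and 853 genes). The DESeq2 Wald test called 243 genes higher and 383 lower, but 0 members. The members' median log2 fold change was 0.016 with library size only, which moved the median of all genes by -0.10. On log2(RPKM + 1), log2(RPKM + 0.1) and log2(RPKM + 1) without a filter it was 0.0037, 0.0036 and 0.0037. The median of all genes was -0.049, -0.083 and -0.049 in those 3 fits. Members' median minus that of all genes was 0.117 in the main fit, 0.115 with library size only, and 0.053, 0.087 and 0.053 in the RPKM fits. With 1 library left out the members' median was 0.05 to 0.14. The cause of these shifts was not tested.

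OAS3 changed sign, from 0.00 (SE 0.21) to 0.0062 with DESeq2 size factors, 0.0063 in the DESeq2 Wald test and 0.024 without the 2 libraries. With 1 library left out OAS3 lay between -0.16 and 0.19. All of these OAS3 values were smaller in size than that SE. IRF1 turned to -0.19, -0.21 and -0.19 on the 3 RPKM fits. BST2 was -0.024, -0.024 and -0.025 and IFI6 -0.13, -0.14 and -0.13 in the fits with the offset, which alone called 0 members (with the block, alone and with the library set), and IFI6 ranged from -0.057 to 0.31 with 1 library left out. The fit with the replicate number as a replicate block called 0 members, with a median of 0.11 over the members; correlations of same-numbered libraries were 0.11, -0.11 and -0.15, so the numbers were not taken as pairs. Depth limits the members under 1 RPKM, whose intervals are wide.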
